A study of Mus musculus with 4 samples.

Results

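Transcripts of 10 genes that set or mark the Th1 and Th2 choice of helper T cells were followed in 4 RNA-sequencing libraries of primary mouse T cells. The genes were 6 regulators (Tbx21, Eomes, Hlx, Gata3, Zfpm1 and Nfil3), 3 cytokine genes (Il4, Il5 and Il13) and the receptor gene Il1rl1. They were chosen by name, for their place in the choice, with earlier results of these data known. All 10 were matched by gene identifier among the 50600 annotated genes. The labels make the libraries biological replicates 1 to 4 of 1 group, with no second group to compare. All came from inbred C57BL/6NJ mice of unknown age and developmental stage, and no allele, agent or culture condition is given in the labels. In the file headers the alignments of all 4 libraries are named Th0 with activated and 24 h, Th0 being the usual name for T cells activated without polarising cytokines. A protocol for CD4+ T-cell differentiation is linked, and so is one for poly(A)+ libraries, although the assay is titled total RNA-seq. No label ties the libraries to separate animals, so errors and p-values reflect only how these samples differ, and part of that may be technical.

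CD4+ T cells that meet antigen can become Th1 cells, which fight intracellular microbes through interferon γ, or Th2 cells, which fight worms and drive allergy through IL-4, IL-5 and IL-13. The T-box factor T-bet, encoded by Tbx21, directs the Th1 course and the zinc-finger factor GATA3 directs the Th2 course, and each opposes the other. The Th2 cytokine genes lie together in a locus that GATA3 opens in Th2 cells, and naive cells need time and cytokine signals to reach that state.

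Library depth ran from 47558517 to 60102919 gene-assigned fragments in replicates 1, 3 and 4 and was 273136467 in replicate 2. Levels are in TPM, an abundance that corrects for exon length and sums to the same total in every library. T-cell marker transcripts were high (each of the 8 listed genes above 10 TPM throughout, with Trac, the T-cell receptor α constant region, at 1676 ± 85.0 and Cd4 at 697 ± 37.9 TPM, SD, n = 4). Of the CD8 co-receptor genes, Cd8a was at 0.804 to 0.862 TPM and Cd8b1 at 46.7 ± 3.55 TPM (SD, n = 4). Xist was at 163 and 150 TPM in replicates 1 and 2 and at 0.715 and 0.696 TPM in replicates 3 and 4, and the Y-linked gene Ddx3y had the opposite order (0.0434, 0.0219, 38.8 and 39.3 TPM). The labels record no sex. With these levels the libraries cannot all come from the same animal, and the spread between libraries includes this split. Its part in the other levels given here was not tested. In bulk RNA, fewer cells that transcribe a gene and less of its RNA per cell cannot be told apart.

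Zfpm1, Gata3, Nfil3 and Tbx21 reached 1 TPM in each library, 4 of the 10 genes against 22.7% of all 50600 annotated genes. The other 6 stayed under 1 TPM throughout, against 73.2% of annotated genes. Zfpm1 and Gata3 also reached 10 TPM in each library, as did 16.0% of annotated genes. At least 1 fragment was counted in each library for 7 of the 10 genes, against 30.4% of annotated genes. By mean level the order was Zfpm1, Gata3, Nfil3, Tbx21, Eomes, Il13, Il1rl1, Il4, Il5 and Hlx. The ranges of neighbours did not overlap from Zfpm1 down to Eomes. From Eomes to Hlx the ranges of every neighbouring pair overlapped. Among these 6, the Eomes range lay above those of Il5 and Hlx.

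**Figure D1:**
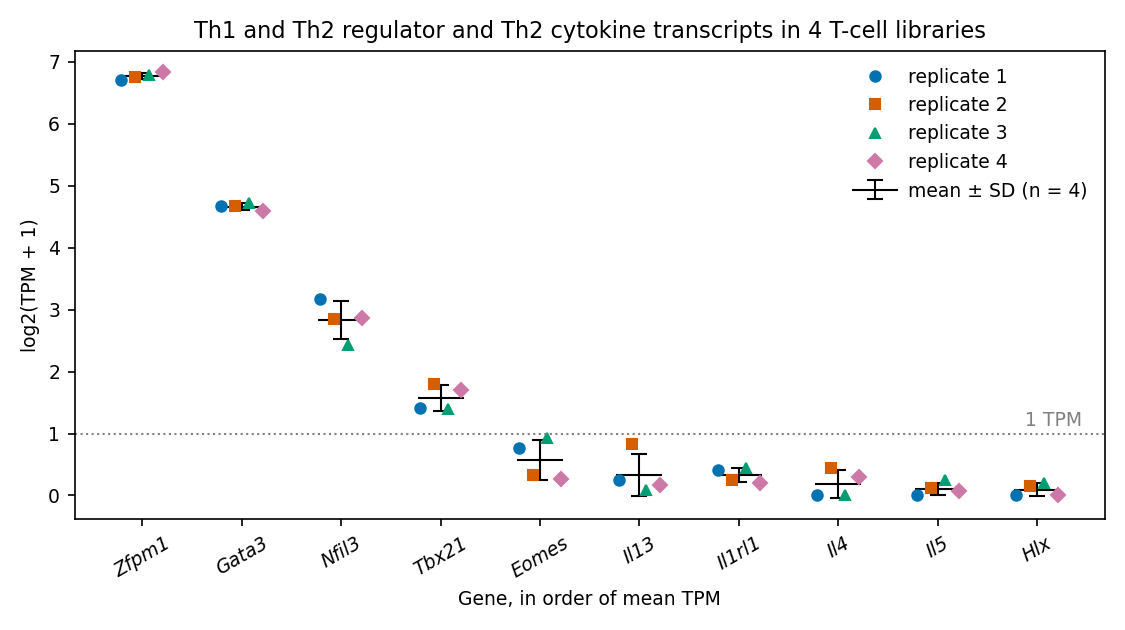
Levels of the 10 genes as log2(TPM + 1), with 1 symbol per library and bars for the mean ± SD (n = 4), ordered from the highest mean. Zfpm1 and Gata3 sit at 108 and 24.3 TPM with little spread, Nfil3 and Tbx21 lie lower with a wider spread, and 6 genes fall below the dotted line at 1 TPM.

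Gata3, the Th2 regulator, was transcribed at an even level in the 4 libraries. Gata3 (ENSMUSG00000015619.10, mm10 chromosome 2, 9857078 to 9890034, minus strand) had 24.5, 24.5, 25.3 and 23.1 TPM in replicates 1 to 4, from 1728, 7704, 1423 and 1289 fragments. The 4 values lay together, with a coefficient of variation of 3.77%. Its mean was above that of 45.9% of the 11483 genes that reached 1 TPM throughout. Antisense to Gata3 lies the predicted gene Gm13256, which shares 155 exon bases with it and had 3 to 23 fragments per library. The counting used strand, so these fragments were not added to Gata3. Another 77 exon bases of Gata3 (1.94% of its exon length) are shared on the same strand with 9230102O04Rik, and a fragment that touches exons of both genes is counted for neither under the options in the file headers.

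Zfpm1 was higher than Gata3 in every library. It encodes FOG-1, a zinc-finger cofactor that binds GATA proteins and is known to hold back GATA3-dependent Th2 cytokine transcription. Zfpm1 (ENSMUSG00000049577.15, chromosome 8, 122282141 to 122337251, plus strand) had 104, 107, 109 and 113 TPM in replicates 1 to 4, from 6443, 29631, 5415 and 5558 fragments. That placed its mean above 82.8% of the genes that reached 1 TPM throughout. Gata3 minus Zfpm1 was -2.11 ± 0.09 in log2(TPM + 1) units (mean ± SD over 4 libraries), with Gata3 the lower gene in 4 of 4 libraries. As a ratio of TPM, Zfpm1 over Gata3 was 4.23, 4.37, 4.32 and 4.90 in replicates 1 to 4.

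Nfil3 encodes E4BP4, a leucine-zipper factor best known for its role in natural killer and innate lymphoid cells and as a regulator of cytokine genes in Th2 cells. Nfil3 (ENSMUSG00000056749.7, chromosome 13, 52967209 to 52981073, minus strand) had 8.01, 6.18, 4.40 and 6.30 TPM in replicates 1 to 4. Replicate 1 was highest and replicate 3 lowest, and their 95% counting intervals (7.11 to 8.99 against 3.67 to 5.24 TPM) did not overlap. Gata3 minus Nfil3 was 1.83 ± 0.33 in log2(TPM + 1) units (mean ± SD over 4 libraries), positive in 4 of 4 libraries.

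On the Th1 side Tbx21 was low and its T-box relative Eomes lower still. Tbx21 (ENSMUSG00000001444.2, chromosome 11, 97098071 to 97115331, minus strand) had 1.65, 2.48, 1.62 and 2.26 TPM in replicates 1 to 4, from 73, 489, 57 and 79 fragments. Replicates 2 and 4 were above replicates 1 and 3, with counting intervals that overlap except between replicate 2 and replicates 1 and 3 (2.27 to 2.71 TPM against 1.30 to 2.08 and 1.23 to 2.10 TPM). Gata3 minus Tbx21 was 3.09 ± 0.24 in log2(TPM + 1) units (mean ± SD over 4 libraries), positive in 4 of 4 libraries. As a ratio of TPM, Gata3 over Tbx21 was 14.8, 9.85, 15.6 and 10.2.

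Eomes, which encodes eomesodermin and shares functions with T-bet in cytotoxic and natural killer cells, differed most between libraries among the regulators that could be tested. Eomes (ENSMUSG00000032446.14, chromosome 9, 118478212 to 118486132, plus strand) had 0.692, 0.262, 0.903 and 0.206 TPM in replicates 1 to 4, from 51, 86, 53 and 12 fragments. Replicates 1 and 3 were high and replicates 2 and 4 low, with no overlap between the counting intervals of a high and a low library. Tbx21 minus Eomes was 1.00 ± 0.52 in log2(TPM + 1) units (mean ± SD over 4 libraries), positive in 4 of 4 libraries. As a ratio of TPM, Tbx21 over Eomes was 2.39, 9.50, 1.80 and 11.0 in replicates 1 to 4. Of 7 genes that mark natural killer cells 4 had any fragment, and their summed level was 0.951, 0.733, 0.738 and 0.975 TPM in replicates 1 to 4. Most of that sum was Prf1, encoding perforin (0.709 ± 0.174 TPM, SD, n = 4), followed by the receptor gene Ncr1 (0.0662 ± 0.0831 TPM, SD, n = 4). Klrb1c, Klrc2 and Klre1 had no fragment in any library. The part of such cells in the Eomes level was not tested.

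Hlx encodes a homeobox factor that works beside T-bet to raise interferon γ in Th1 cells. Hlx (ENSMUSG00000039377.7, chromosome 1, 184727140 to 184732619, minus strand) had 0, 21, 5 and 0 fragments in replicates 1 to 4. That is 0.116 TPM in replicate 2 and 0.155 TPM in replicate 3. A count of 0 allows up to 0.0742 TPM in replicate 1 and 0.0939 TPM in replicate 4, taking 3 fragments as the limit. Tbx21 minus Hlx was 1.48 ± 0.24 in log2(TPM + 1) units (mean ± SD over 4 libraries), positive in 4 of 4 libraries.

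The Th2 cytokine genes had at most 4 fragments each in replicates 1, 3 and 4, and up to 75 in replicate 2, the deepest library. Il4, Il5 and Il13 together had 136 fragments among 429406799. Il13 encodes the cytokine that drives mucus and airway changes in allergy, Il4 the cytokine that drives IgE and Th2 growth, and Il5 the growth factor of eosinophils. Their promoters are shown because GATA3 acts on this locus in Th2 cells. The windows are the 250 bases before each gene's RefSeq start, 5′ to 3′ on the gene's strand, from GRCm38.p6 (the assembly of mm10), with the 6-base GATA words AGATAA or AGATAG or TGATAA or TGATAG on either strand in capitals. The words printed do not overlap one another.
Il4 chr11:53618666-53618915 minus: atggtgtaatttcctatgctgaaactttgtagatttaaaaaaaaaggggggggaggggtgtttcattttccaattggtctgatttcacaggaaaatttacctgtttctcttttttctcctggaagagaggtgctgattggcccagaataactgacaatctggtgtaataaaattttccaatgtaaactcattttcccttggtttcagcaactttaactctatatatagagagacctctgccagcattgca
Il13 chr11:53634703-53634952 minus: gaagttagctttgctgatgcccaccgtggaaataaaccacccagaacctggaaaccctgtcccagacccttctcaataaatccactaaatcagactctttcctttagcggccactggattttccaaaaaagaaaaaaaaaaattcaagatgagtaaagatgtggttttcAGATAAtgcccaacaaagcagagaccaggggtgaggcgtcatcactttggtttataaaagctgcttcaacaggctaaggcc
Il5 chr11:53720544-53720793 plus: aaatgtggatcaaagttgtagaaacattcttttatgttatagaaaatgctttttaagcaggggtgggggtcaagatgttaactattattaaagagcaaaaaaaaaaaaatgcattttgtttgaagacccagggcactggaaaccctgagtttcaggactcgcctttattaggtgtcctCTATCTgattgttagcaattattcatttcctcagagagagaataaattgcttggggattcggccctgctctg
The Il13 window holds AGATAA starting at position -81 from the RefSeq start, the Il5 window holds AGATAG on the opposite strand starting at position -72, and the Il4 window holds none of the 4 words. RefSeq lists 2 starts for Il4, and only the window before the start nearest to its annotated start was searched. Of all 32851 RefSeq promoter windows of this length, 26.5% hold at least 1 such word. A word in a window is a description of its letters and not a binding site.

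Il13 (ENSMUSG00000020383.1, chromosome 11, 53631324 to 53634702, minus strand) had 4, 75, 1 and 2 fragments in replicates 1 to 4, or 0.187, 0.786, 0.0587 and 0.118 TPM. Replicate 2 was the highest, and its counting interval of 0.619 to 0.986 TPM lay above those of the other 3 libraries, which reached at most 0.479 TPM. Without replicate 2 the mean was 0.121 TPM, against 0.288 with it. Il4 (ENSMUSG00000000869.12, chromosome 11, 53602982 to 53618669, minus strand) had 0, 35, 0 and 4 fragments. Its level was 0.360 TPM in replicate 2 and 0.232 TPM in replicate 4, and the counts of 0 allow up to 0.138 TPM in replicate 1 and 0.173 TPM in replicate 3. Without replicate 2 the mean of Il4 was 0.0775 TPM, against 0.148 with it.

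Il5 (ENSMUSG00000036117.2, chromosome 11, 53720794 to 53725106, plus strand) had 0, 10, 4 and 1 fragments, or 0.0822, 0.184 and 0.0464 TPM in replicates 2, 3 and 4. The count of 0 allows up to 0.110 TPM in replicate 1. Counting intervals of all 4 libraries overlapped for Il5, and its mean of 0.0782 TPM was 0.0429 without replicate 3. The levels of the 3 cytokine genes could not be ordered. Il4 minus Il13 was -0.15 ± 0.23 and Il5 minus Il13 was -0.23 ± 0.37 in log2(TPM + 1) units (mean ± SD over 4 libraries), each negative in 3 of 4 libraries (exact sign-flip permutation p = 0.375, also after adjustment over the 8 pairs).

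**Figure D2:**
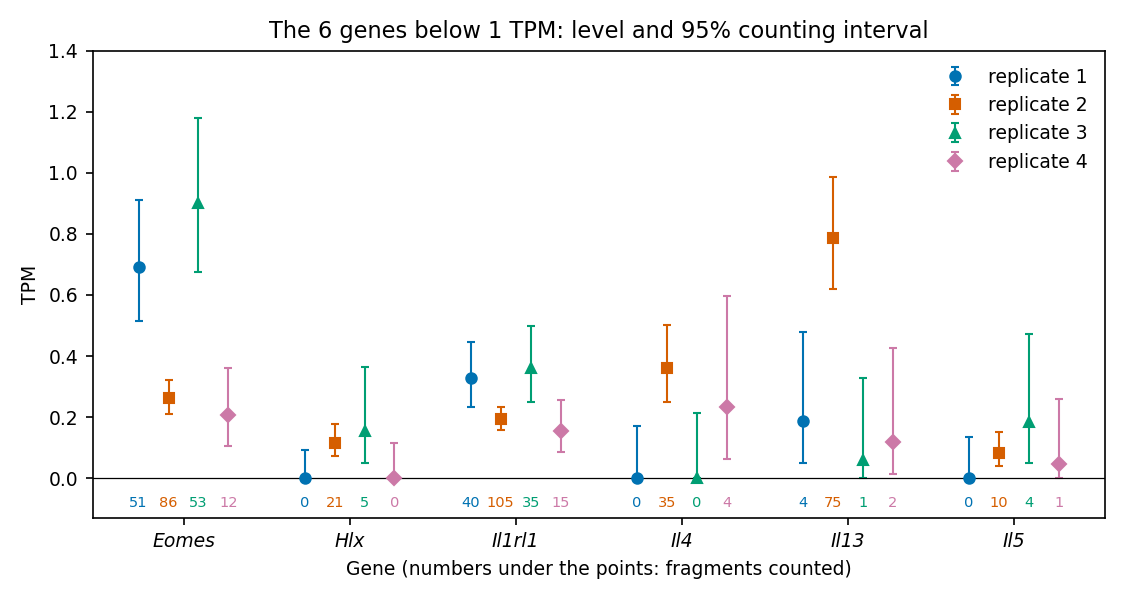
The 6 genes below 1 TPM, with the level in each library, its 95% exact Poisson interval, and the fragment count under each symbol. Eomes is high in replicates 1 and 3 (0.692 and 0.903 TPM), Il13 is high in replicate 2 (0.786 TPM), and Hlx, Il4 and Il5 each have at least 1 library with no fragment.

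Rad50 and Kif3a, which lie among and beside the cytokine genes, were transcribed, while Rps2-ps4, between Il13 and Rad50, was near 0 and Gm12214, on the strand opposite to Il5, had no fragment. Il4, Il13 and Il5 lie in that order over 122 kb, with Il13 starting 16.0 kb and Il5 102 kb from the start of Il4. Rad50, a DNA repair gene that fills most of the gap between Il13 and Il5 and carries the locus control region of the Th2 cytokines, had 61.5, 62.6, 61.6 and 61.6 TPM in replicates 1 to 4. Kif3a, a kinesin gene that ends next to Il4, had 4.62 ± 0.40 TPM (SD, n = 4). Within 200 kb of the cytokine genes, these included, 6 of 29 annotated genes reached 1 TPM in each library, a share near the 22.7% of all annotated genes. The other 4 besides Rad50 and Kif3a were Uqcrq, a subunit of respiratory complex III (218 ± 25.5 TPM), Irf1, an interferon-responsive factor (16.4 ± 0.543 TPM), Slc22a5, a carnitine transporter (14.8 ± 0.766 TPM), and the septin gene Sept8 (12.3 ± 0.549 TPM, SD, n = 4 each). Of the remaining named genes, Leap2, Gdf9, Rpl9-ps3 and Rps2-ps4 averaged 0.0595, 0.455, 0.256 and 0.160 TPM, and Mir6920, Shroom1, Sowaha and Mir7671 had no fragment in any library.

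**Figure D3:**
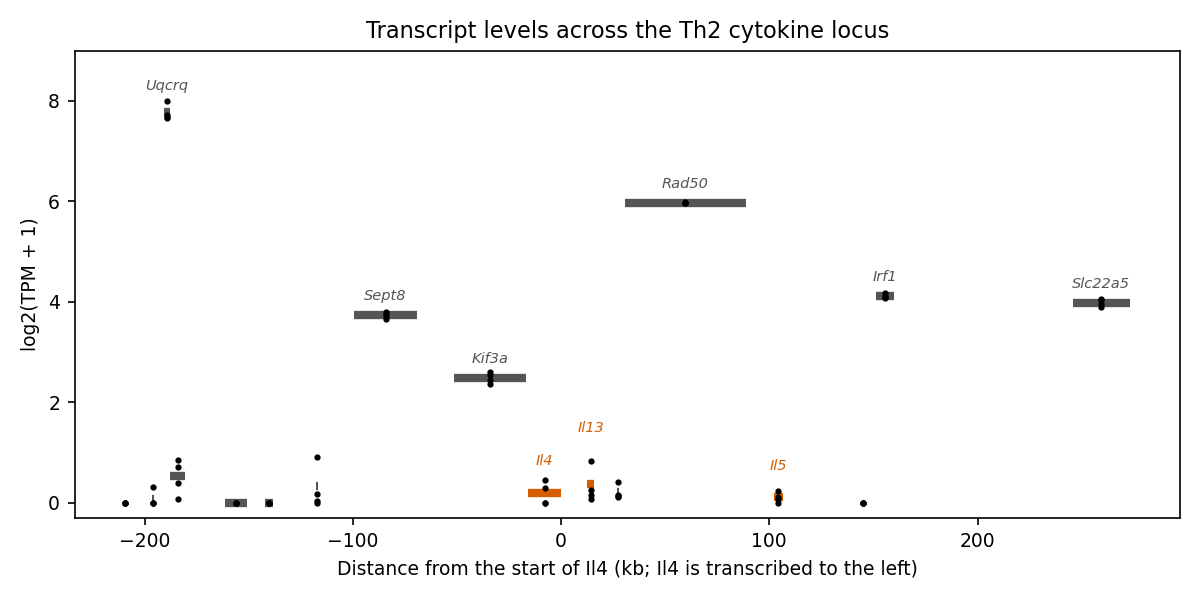
Transcript levels along the Th2 cytokine locus, plotted as log2(TPM + 1) against distance in kb from the start of Il4, with a bar over each gene at the mean and points for the 4 libraries. The cytokine genes (orange) lie below 1 TPM while Rad50, between Il13 and Il5, is at 61.8 TPM. Genes below 1 TPM other than the cytokines carry no name.

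Il1rl1 encodes ST2, the receptor for the alarm cytokine IL-33, which Th2 cells, tissue regulatory T cells, mast cells and innate lymphoid cells carry. Il1rl1 (ENSMUSG00000026069.15, chromosome 1, 40429570 to 40465415, plus strand) had 0.327, 0.192, 0.359 and 0.155 TPM in replicates 1 to 4, from 40, 105, 35 and 15 fragments. Replicates 1 and 3 were again above replicates 2 and 4, here with counting intervals that overlap between replicate 4 and the high libraries. The gene count joins the membrane and the soluble form of ST2. Gata3 minus Il1rl1 was 4.33 ± 0.08 in log2(TPM + 1) units (mean ± SD over 4 libraries), positive in 4 of 4 libraries. The added 1 exceeds every Il1rl1 level, which makes both the difference and its SD smaller. Of the 2 starts that RefSeq lists for Il1rl1, the window before the upstream one is shown because it holds more GATA words than the window of any other of the 10 genes.
Il1rl1 chr1:40429320-40429569 plus: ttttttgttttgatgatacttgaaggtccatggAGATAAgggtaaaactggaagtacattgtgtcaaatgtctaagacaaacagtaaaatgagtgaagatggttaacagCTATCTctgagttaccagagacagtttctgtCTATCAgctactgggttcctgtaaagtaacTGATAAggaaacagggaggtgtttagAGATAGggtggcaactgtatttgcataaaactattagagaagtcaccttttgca
This window holds 5 of the GATA words defined above, starting at positions -217, -141, -110, -80 and -54. Among all RefSeq windows of this length, 6.40% hold 2 or more and 1.35% hold 3 or more. The window was picked as the highest of 10, so these shares of single windows do not measure how rare it is. Taking for each gene the window nearest to its annotated start, 3 of the 10 genes (Il1rl1, Il5 and Il13) had at least 1 word, a share near the 26.5% of all windows. The RefSeq start used for Gata3 lies 11434 bases from its annotated start, against at most 126 bases for the other genes.

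Mast cells and basophils, eosinophils and type 2 innate lymphoid cells can transcribe Il4, Il13 or Il1rl1, and most of the genes listed for each had no fragment. Of 9 mast cell and basophil genes, 7 had no fragment in any library, among them Fcer1a, Cpa3 and Mcpt8. The other members of that list were Hdc, encoding the histamine-forming enzyme (0.986 ± 0.245 TPM), and the receptor gene Kit (0.114 ± 0.0442 TPM, SD, n = 4 each). Hdc was highest in replicate 2 (1.31 TPM), the library with the most Il13 and Il4, and the summed level of the list was 1.08, 1.42, 1.10 and 0.805 TPM in replicates 1 to 4. Its part in the Il13 and Il4 counts was not tested. Of 5 eosinophil genes, 2 had a fragment, Siglecf (0.0936 ± 0.118 TPM) and Prg2 (0.0513 ± 0.0610 TPM, SD, n = 4 each), and the summed level ran from 0.0256 to 0.263 TPM. Of 6 genes of type 2 innate lymphoid cells, 2 had a fragment, Il17rb (19 fragments) and Areg (20 fragments), and the summed level ran from 0 to 0.389 TPM.

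Regulatory T cells can transcribe Gata3 and Il1rl1 as well, and their defining factor Foxp3 had 5.81, 4.61, 4.17 and 4.49 TPM in replicates 1 to 4. Summed over 5 regulatory T-cell genes the level ran from 510 to 572 TPM, most of it from the activation-linked genes Il2ra (296 ± 11.0 TPM) and Ctla4 (234 ± 21.9 TPM, SD, n = 4 each). The part of such cells in the Gata3 and Il1rl1 levels was not tested. Summed B-cell genes ran from 3.33 to 7.01 TPM over 5 genes, led by Cd79b (1.57 ± 0.510 TPM, SD, n = 4). Summed myeloid genes ran from 0.518 to 2.32 TPM over 6 genes, led by Fcer1g (0.711 ± 0.639 TPM) and Adgre1 (0.312 ± 0.145 TPM, SD, n = 4 each).

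Many receptor and signalling genes of both routes were transcribed, while the cytokine genes averaged below 1 TPM. Some receptor genes were low too. Il18r1 averaged 0.938 TPM and Il17rb 0.102 TPM, Ccr3 had 1 fragment in all, and Ptgdr2 had none. Of 20 further Th1 pathway genes, 16 reached 1 TPM and 12 reached 10 TPM in each library, against 22.7% and 16.0% of all annotated genes. The median of the list was 24.1 TPM. The highest were the transcription factor gene Bhlhe40 (396 ± 17.6 TPM), the receptor chain gene Il12rb1 (119 ± 5.07), the kinase gene Jak2 (118 ± 5.07) and the IL-27 receptor gene Il27ra (103 ± 3.12 TPM, SD, n = 4 each). Among the lowest were Ifng, the Th1 cytokine (0.574 ± 0.625 TPM), and Twist1, a repressor active in Th1 cells (0.402 ± 0.164 TPM, SD, n = 4 each). Ifng had 1.48, 0.215, 0.492 and 0.110 TPM in replicates 1 to 4, from 34, 22, 9 and 2 fragments. Like Eomes and Il1rl1 it was higher in replicates 1 and 3 than in replicates 2 and 4. Tbx21 ran the other way, with replicates 2 and 4 above replicates 1 and 3. The Ifng counts in replicates 3 and 4 are small, and no counting interval was computed for Ifng.

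Of 28 further Th2 pathway genes, 17 reached 1 TPM and 15 reached 10 TPM in each library, against the same 22.7% and 16.0% of all annotated genes. The median of the list was 46.8 TPM. The highest were the transcription factor genes Irf4 (827 ± 38.2 TPM) and Junb (538 ± 26.3), the shared γ-chain gene of cytokine receptors, Il2rg (318 ± 9.68), and Il2ra as above. The IL-4 receptor gene Il4ra was at 99.8 ± 9.12 TPM and its signal transducer Stat6 at 278 ± 15.1 TPM (SD, n = 4 each), both named for their place in the pathway after their values were seen. The other 11 genes stayed under 1 TPM throughout. They include Maf (0.530 ± 0.0785 TPM, SD, n = 4), a factor that drives Il4 transcription in Th2 cells, chosen likewise, and Ptgdr2, Il6 and Pparg, which had no fragment in any library.

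**Figure D4:**
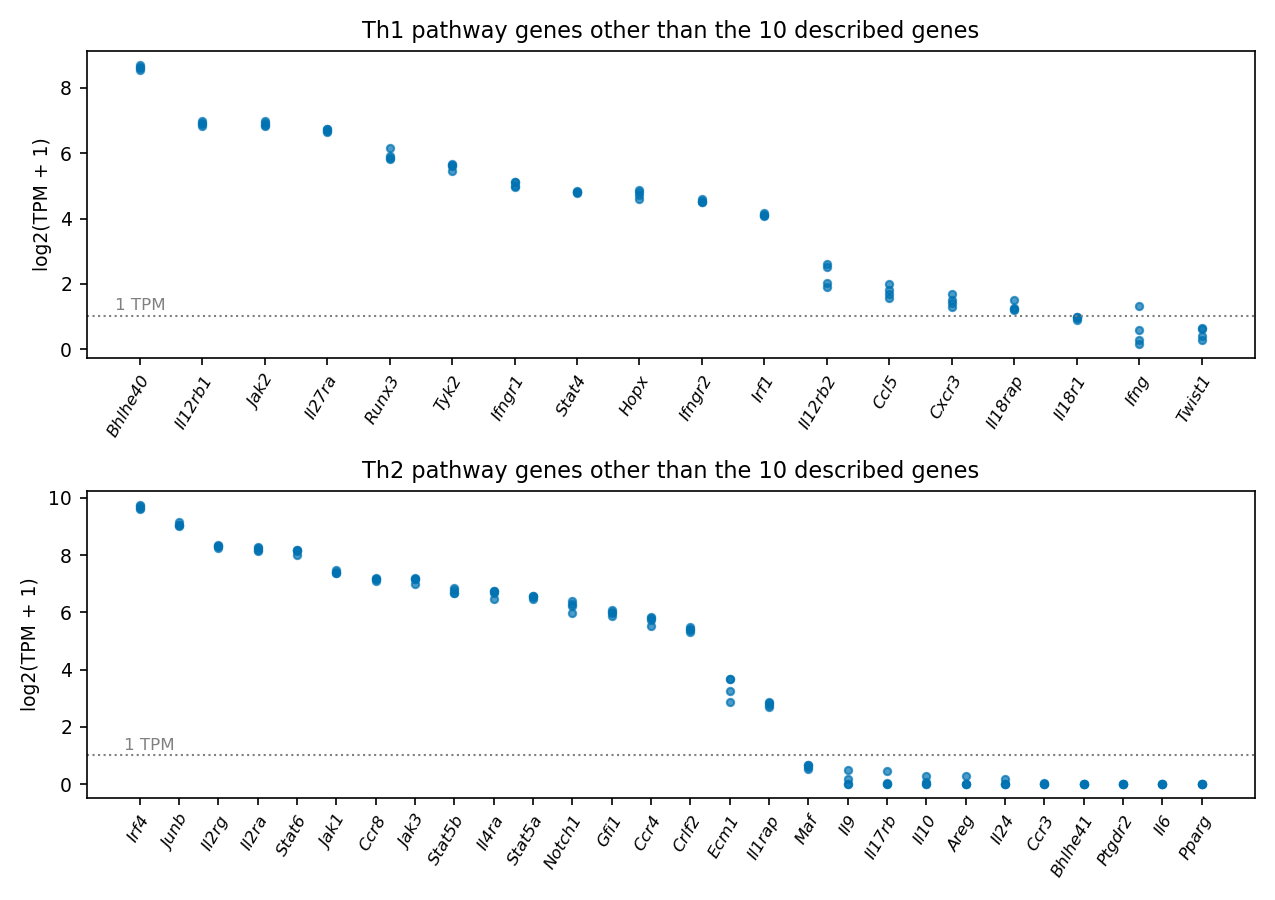
Levels of the other Th1 pathway genes (upper panel, 18 of the 20) and Th2 pathway genes (lower panel, 28 genes) as log2(TPM + 1), with 1 point per library and the dotted line at 1 TPM. In the Th2 panel 17 genes lie above the line, from Irf4 at 827 TPM down, and 11 lie below it, of which Maf at 0.530 TPM is the highest.

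Among 39 regulators of T-cell fate, those with levels most like Gata3 over the 4 libraries include Id2 and Hopx, with root mean square differences of 0.07 and 0.15 on the log2(TPM + 1) scale. Id2, an inhibitor of E proteins, was at 25.2 ± 1.38 TPM and the homeodomain gene Hopx at 25.9 ± 2.21 TPM (SD, n = 4 each). For Tbx21 they were Ikzf2 (0.42), Rora (0.50) and Maf (0.97 on the same scale). Ikzf2, an Ikaros-family factor of regulatory T cells, was at 1.41 ± 0.489 TPM and the nuclear receptor gene Rora at 1.32 ± 0.403 TPM (SD, n = 4 each).

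For each of the 6 comparisons of regulator or receptor levels given above (Gata3 with Tbx21, Zfpm1, Nfil3 and Il1rl1, and Tbx21 with Eomes and Hlx), the difference kept its sign in every library. Its exact sign-flip permutation p was 0.125, two-sided, the smallest that 4 libraries allow, and 0.167 after Benjamini-Hochberg adjustment over the 8 pairs compared. No pair could therefore pass 0.05. With a pseudocount of 0.1 in place of 1, Tbx21 minus Eomes was 1.93, Tbx21 minus Hlx 3.76 and Gata3 minus Il1rl1 6.13 log2 units, each in the same direction.

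Whether the genes varied between libraries more than others of their level was tested with edgeR over the 12712 genes with enough fragments. Of these genes 46 varied past an adjusted p of 0.05 (0.362%), and 6 of the 10 genes could be tested. None of the 6 was past the threshold in edgeR, and Eomes was the 1 gene of them with an unadjusted p under 0.05, against 5.54% of all genes tested. Eomes had a residual deviance of 13.8, above that of 98.9% of genes tested (edgeR adjusted p = 0.291). Its deviance was past the threshold with a common dispersion for all genes (edgeR adjusted p = 6.8e-07), and its adjusted p ran from 0.145 to 1 under the other alternatives. Nfil3 had a deviance of 5.47, Il1rl1 4.24, Tbx21 1.94, Zfpm1 1.37 and Gata3 0.498, each with an edgeR adjusted p of 1. The median deviance was 3.09 over the 6 genes and 1.98 over all genes tested. Hlx, Il4, Il5 and Il13 had too few fragments to be tested. With no filter on low counts, each of these 4 had an edgeR adjusted p of 1, and the lowest unadjusted p was 0.0965, for Il4.

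**Figure D5:**
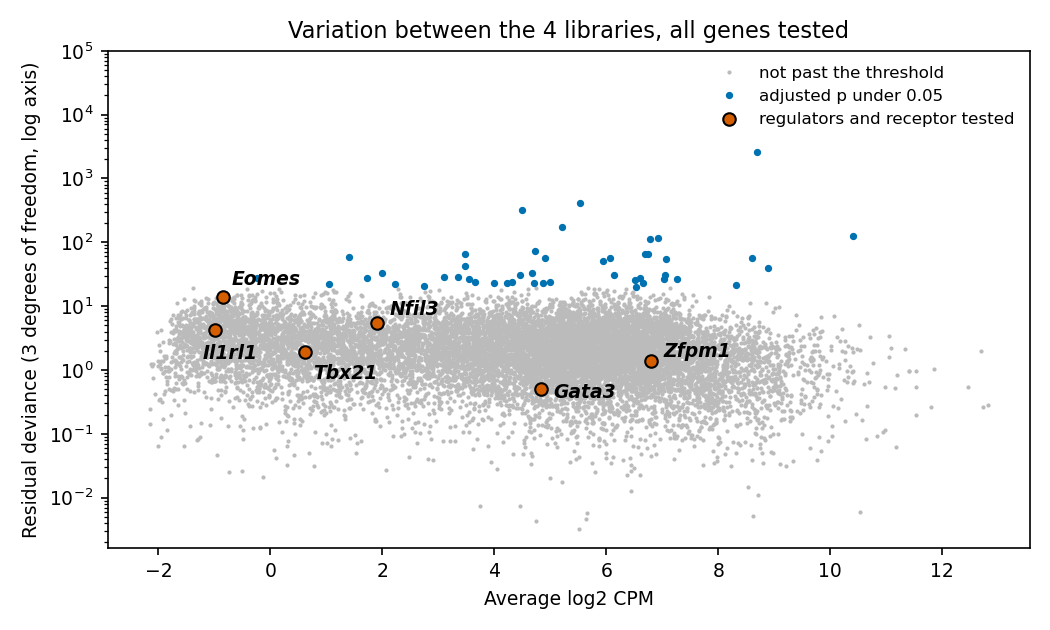
Residual deviance between the 4 libraries (log axis, 3 degrees of freedom) against average log2 CPM for 12712 genes, with the 46 genes past the threshold in blue and the 6 tested regulator and receptor genes in orange. Eomes lies at the upper edge of genes of its level (13.8) and Gata3 near the lower part (0.498).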

How the data were processed

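Gene counts were deposited by the authors as whole numbers, 1 table per library. Per the file headers they are fragments with both ends aligned, assigned to GENCODE vM13 exons by featureCounts 1.4.6-p4 with strand setting 2. The options that keep fragments of several genes or places were not set. The build is mm10 per the labels, and alignment settings are not given in the sources used here. TPM, FPKM and CPM were derived here from these counts and the deposited exon lengths, and symbols from GENCODE vM21 by identifier. The 95% intervals are exact Poisson and, like the limit of 3 fragments for a count of 0, cover counting error only.

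Variation was tested with edgeR 4.0.16 (R 4.3.3): filterByExpr with a minimum count of 10, TMM, an intercept-only negative binomial fit with trended dispersion, residual deviance against chi-square with 3 degrees of freedom, and Benjamini-Hochberg adjustment over the 12712 genes tested. On simulated counts for this comparison (12554 genes tested) the fit recovered 26.9%, 74.6% and 97.0% of genes moved 1.5-, 2- and 4-fold in 1 library, with 4 false calls. These counts were drawn at the fitted dispersion, with the moved genes picked at random over all levels. The shares need not hold for low genes such as Eomes, or for shifts in more than 1 library. Differences between genes were tested within libraries by an exact sign-flip permutation test (Python 3.11.15). DESeq2 1.42.0 gave size factors for an alternative. Other alternatives changed the pseudocount, unit, filter, dispersion, depth of replicate 2 or the libraries used. Chi-square per degree of freedom between libraries was 9.14 to 29.1 over genes, so no library was counted as a copy of another.

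The 10 genes, lists and tests were chosen with earlier results of these data known. Genes named are the 10, the 4 highest and 3 lowest of each pathway list, the 2 highest of each other-cell list, named genes within 200 kb of the cytokine locus, the 3 regulators nearest to Gata3 and to Tbx21, and genes overlapping one of the 10. Of the last, 4930412O13Rik, Gm33460 and Gm12214 (opposite strand to Gata3, Eomes and Il5) and Gm20388 (same strand as Zfpm1) share no exon bases with them on the same strand. Other genes were named after their values were seen. A few genes within these rules are not reported here.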

Additional observations from a re-analysis of the deposited data

Results flagged for a closer look

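Over 80 sets of values, each with 1 value per library, 8 had an extreme library separated from the nearest other by more than Dixon's 95% limit for 4 samples, where chance gives about 1 in 20. None of the 10 genes or their differences was among them. The depth of replicate 2 was one, at 273136467 fragments, the other libraries having 47558517 to 60102919. In the cytokine locus, Rad50 was highest in replicate 2 at 62.6 TPM, against 61.5 to 61.6 in the others. Uqcrq was highest in replicate 1 at 256 TPM, against 202 to 209. The pseudogenes Rpl9-ps3 (0.881 TPM in replicate 1, against 0 to 0.123) and Rps2-ps4 (0.338 TPM in replicate 4, against 0.0890 to 0.112) each had 1 such library. So did Leap2 and Areg (0.238 and 0.208 TPM in replicate 2, against 0) and Il17rb (0.389 TPM in replicate 3, against 0 to 0.0185). In replicates 1 to 4, Rpl9-ps3 had 9, 1, 1 and 0 fragments and Rps2-ps4 had 1, 5, 1 and 3. Leap2 had 10 fragments and Areg 20, all in replicate 2, and Il17rb had 0, 4, 15 and 0. The rule compares gaps within the 4 values and takes no account of counting error or of how small a gap is.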

How the results depend on the processing

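Of 180 recomputed values 170 kept their direction and side of the threshold or, without a test, moved by less than 1 SD between libraries or 1.5 times for a count, and none changed sign. Leaving out 1 of 4 libraries cannot move a mean TPM by 1 SD, so for those means this outcome was fixed in advance. The tally is therefore no measure of how stable the means are. All 48 alternatives for the 8 differences between genes (a pseudocount of 0.1, TMM-scaled CPM, each replicate left out) kept their direction. For pairs with the same sign in every library, a changed pseudocount or a library left out could not have given another direction. Sizes moved: Il4 minus Il13 ran from -0.63 (pseudocount 0.1) to -0.06 (CPM, or without replicate 2) and Il5 minus Il13 from -0.89 (pseudocount 0.1) to -0.06 (without replicate 2). The 4 genes at 1 TPM or more in every library stayed 4 at 0.5 TPM, without mitochondrial and ribosomal RNA-like genes in the total, with replicate 2 thinned and with each replicate left out, and were 3 at 1 FPKM. The number of variable genes, 46, was 862 with a common dispersion, and leaving out 1 replicate at a time gave 25 to 40, the lowest without replicate 2. The count among the 10 genes, 0, became 1 (Eomes) with a common dispersion and stayed 0 with a replicate left out, with DESeq2 size factors, without the filter and with replicate 2 thinned. The cause was not tested. FPKM was 0.290 to 0.293 of TPM for all 10 genes, a change of scale. Means of Hlx, Il4, Il5 and Il13 moved by 1.75 to 2.37 times when the library with most of their signal was left out (0.0388 TPM for Hlx without replicate 3), and rest on 15 to 82 fragments. No paired analysis was possible because there is only 1 group.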
